A study of Mus musculus with 2 samples.

Results

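Krüppel-like factors are DNA-binding proteins, and 10 of their genes were followed here: Klf2, Klf3, Klf4, Klf6, Klf7, Klf10, Klf11, Klf12, Klf13 and Klf16. They were taken by their GENCODE M21 symbol from the 55536 genes of the deposited tables, and each of the 10 was found once. The RNA was polyadenylated and came from inflammation-experienced regulatory T cells, which the labels describe as primary cells, originating from activated regulatory T cells, of male mice at 7 weeks of age. The labels name 1 biological replicate and 2 technical replicates, called library 1 and library 2 below, and no strain, allele, sorting gate, agent or untreated group. No comparison between conditions was therefore possible, and every SD and p-value below measures the difference between these 2 libraries of 1 sample, not the spread between animals. Although labelled as technical replicates, the libraries stood further apart than counting error in transcripts of other cells, as with the red cell factor Klf1 (405 and 1 expected counts) and the macrophage gene Fcna (0 and 257). Whether the libraries came from the same RNA or the same cells was not tested. RNA was sheared to a size range of 100 to 300.

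The family is defined by zinc fingers at the end of the protein, each a small fold held by a pair of cysteines and a pair of histidines around a zinc ion. The fingers bind GC-rich DNA, the GC box (GGGCGG) and the CACCC box, and the rest of the protein decides whether the gene is activated or repressed. Klf2, Klf4, Klf6 and Klf7 are grouped as activators, Klf3 and Klf12 as repressors that bind the corepressor CtBP, and Klf10, Klf11, Klf13 and Klf16 as factors that bind the corepressor Sin3A. In T cells Klf2 is known for quiescence and for exit from lymphoid organs, Klf10 as a gene induced by TGF-beta, and Klf13 as an activator of the chemokine gene Ccl5.

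The coding sequence of the finger region was read from the GENCODE M21 transcript with a CCDS identifier of each gene, on mm10. In all 10 genes it held 3 fingers within a block of 81 codons, and 46 of the 81 encoded residues were identical in all 10. Over the 45 pairs of genes the identity of the residues ran from 61.7% to 95.1%, with a median of 69.1%. It had a median of 79.0% within the 3 groups named above and 66.7% between them. The third finger of the 4 most alike pairs is shown because the 2 genes of each pair stood at different levels in these cells. Capitals mark the codons of the zinc-binding cysteines and histidines.
Klf6: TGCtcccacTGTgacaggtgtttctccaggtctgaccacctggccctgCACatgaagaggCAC
Klf7: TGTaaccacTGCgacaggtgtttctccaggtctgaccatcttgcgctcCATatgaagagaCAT
Klf2: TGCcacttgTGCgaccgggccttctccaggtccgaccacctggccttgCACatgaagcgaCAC
Klf4: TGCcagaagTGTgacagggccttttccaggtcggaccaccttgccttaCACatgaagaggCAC
Klf3: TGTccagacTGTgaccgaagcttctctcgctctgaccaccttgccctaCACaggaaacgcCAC
Klf12: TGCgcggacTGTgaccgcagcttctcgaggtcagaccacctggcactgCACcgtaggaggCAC
Klf10: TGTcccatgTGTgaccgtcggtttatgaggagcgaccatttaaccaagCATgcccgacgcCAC
Klf11: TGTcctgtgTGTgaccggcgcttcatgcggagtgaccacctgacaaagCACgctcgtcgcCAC

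These stretches lie at chr8:72320851-72320913 for Klf2 (plus strand, exon 3 of 3), chr4:55528131-55528193 for Klf4 (minus strand, exon 5 of 5), chr5:64829084-64829146 for Klf3 (plus strand, exon 6 of 6) and chr14:99875145-99875207 for Klf12 (minus strand, exon 8 of 8). Those of Klf10 (chr15:38295995-38296057, minus strand) and Klf11 (chr12:24660290-24660352, plus strand) lie in exon 4 of 4, and those of Klf6 (chr13:5866746-5867277, plus strand) and Klf7 (chr1:64035719-64042330, minus strand) are split between exons 3 and 4. Residue identity over the whole block was 95.1% for Klf6 and Klf7, 91.4% for Klf2 and Klf4 and for Klf3 and Klf12, and 86.4% for Klf10 and Klf11. The DNA was less alike, with base identities between 57.6% and 81.1% over the 45 pairs. Over all annotated transcripts of each gene, in full length, the longest run of bases shared by any pair was 41 (Klf3 and Klf12). That is shorter than the length of 50 bases that the effective lengths of the deposited table imply. Whether this is the length of a read or of a fragment was not tested. The authors' posterior SD of the estimated count was 0 in both libraries for 7 of the 10 genes and at most 2.81 counts, in Klf3, so little of their counts was uncertain between genes.

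Genes were compared with each other by TPM, an abundance divided by effective transcript length and scaled to the same sum in each library. With detection set at a TPM of 1 or more in each library, 13718 genes passed, and 9 of these 10. The 10 genes had a summed TPM of 1111 and 1296 (1204 ± 131, SD, n = 2). Klf2 alone was 39.8% and 43.4% of that sum, and Klf2, Klf3, Klf13 and Klf6 together 93.2% and 94.0%. The activators summed to a TPM of 603 and 765, the CtBP-binding pair to 244 and 259, and the Sin3A-binding genes to 264 and 272. The authors also give an upper bound for each TPM. For 5 of the 10 genes (Klf2, Klf3, Klf13, Klf6 and Klf16) the TPM lay above that bound in both libraries. For Klf2 the values were 442.6 against a bound of 411.4 in library 1 and 562.9 against 513.2 in library 2. The reason was not tested. RNA was measured in bulk, so fewer cells with a transcript and less of it per cell cannot be told apart.

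**Figure D1:**
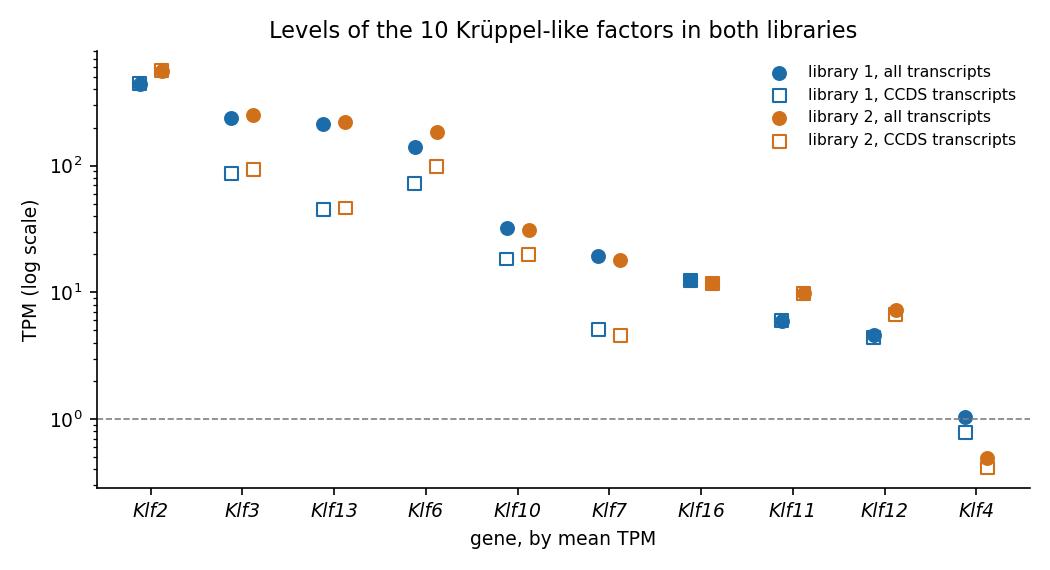
TPM (log axis) of each gene in library 1 (blue) and library 2 (orange). Filled circles sum all annotated transcripts, open squares only those with a CCDS identifier, and the dashed line marks a TPM of 1. Klf2 is highest in both libraries (442.6 and 562.9), Klf4 lies at the detection line, and the squares fall well below the circles for Klf3, Klf13, Klf6 and Klf7.

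Among the activators, Klf2 (ENSMUSG00000055148.7, chr8:72319033-72321656, plus strand) had a TPM of 442.6 in library 1 against 562.9 in library 2. Its mean of 503 ± 85.1 (SD, n = 2) lay at the 98.1 percentile of detected genes. Klf6 (ENSMUSG00000000078.7, chr13:5861482-5870394, plus strand), a factor induced by tissue injury, stood at 139.5 and 183.8, or 162 ± 31.3. Both were higher in library 2. Klf7 (ENSMUSG00000025959.13, chr1:64029447-64122282, minus strand), first known from neurons, stood at 19.5 and 17.9, or 18.7 ± 1.10. Klf4 (ENSMUSG00000003032.8, chr4:55527143-55532466, minus strand), known as a pluripotency factor and from monocytes, stood at 1.04 and 0.49, on 42 and 17 expected counts. It was the only one of the 10 below the detection threshold in a library.

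Among the CtBP-binding repressors, Klf3 (ENSMUSG00000029178.14, chr5:64803388-64832901, plus strand) was second of the 10, at 239.6 and 251.5, or 246 ± 8.44. Klf12 (ENSMUSG00000072294.5, chr14:99870632-100284679, minus strand) stood at 4.62 and 7.25, or 5.94 ± 1.86. Among the Sin3A-binding factors, Klf13 (ENSMUSG00000052040.10, chr7:63886351-63938915, minus strand) stood at 213.9 and 219.5, or 217 ± 3.91. Klf10 (ENSMUSG00000037465.10, chr15:38291463-38300706, minus strand) followed at 32.0 and 30.8, Klf16 (ENSMUSG00000035397.8, chr10:80567124-80577321, minus strand) at 12.5 and 11.8, and Klf11 (ENSMUSG00000020653.12, chr12:24651274-24662789, plus strand) at 5.96 and 9.84. Each of the 3 groups thus held a gene above a TPM of 130 in both libraries beside genes below 20.

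In order of mean TPM the genes ran Klf2, Klf3, Klf13, Klf6, Klf10, Klf7, Klf16, Klf11, Klf12 and Klf4, and each was above the next in both libraries. The ranges of the 2 libraries overlapped for 1 neighbouring pair, Klf11 and Klf12, whose means differed 1.33-fold. The narrowest step without overlap was from Klf3 to Klf13, at 1.13-fold. The widest steps were from Klf12 to Klf4 at 7.76-fold and from Klf6 to Klf10 at 5.15-fold. The genes whose fingers are most alike were not neighbours in level. Klf2 exceeded Klf4 426-fold in library 1 and 1149-fold in library 2, Klf3 exceeded Klf12 51.9-fold and 34.7-fold, Klf6 exceeded Klf7 7.16-fold and 10.2-fold, and Klf10 exceeded Klf11 5.37-fold and 3.13-fold. These ratios are descriptions with no test, because genes are not replicates.

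The level of a gene with several annotated transcripts depends on how its counts were spread over them. Klf13 is the clearest case. Its transcript Klf13-204, of 487 bases, protein coding and without a CCDS identifier, took 76.7% of the gene's TPM in library 1 and 77.5% in library 2. It took 19.95% of the expected counts in library 1 (95% Wilson interval 18.96 to 20.99) and 20.08% in library 2 (18.99 to 21.20). These intervals, here and for the transcripts below, take the estimated counts as observed. They leave out the uncertainty of splitting reads between transcripts of a gene. The transcript with the CCDS identifier, Klf13-201 of 6396 bases, took 78.8% (77.7 to 79.8) and 79.2% (78.1 to 80.3) of the counts, at a TPM of 44.7 and 46.3. Klf13 thus stood at a mean TPM of 217 over all transcripts and 45.5 over its CCDS transcript.

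**Figure D2:**
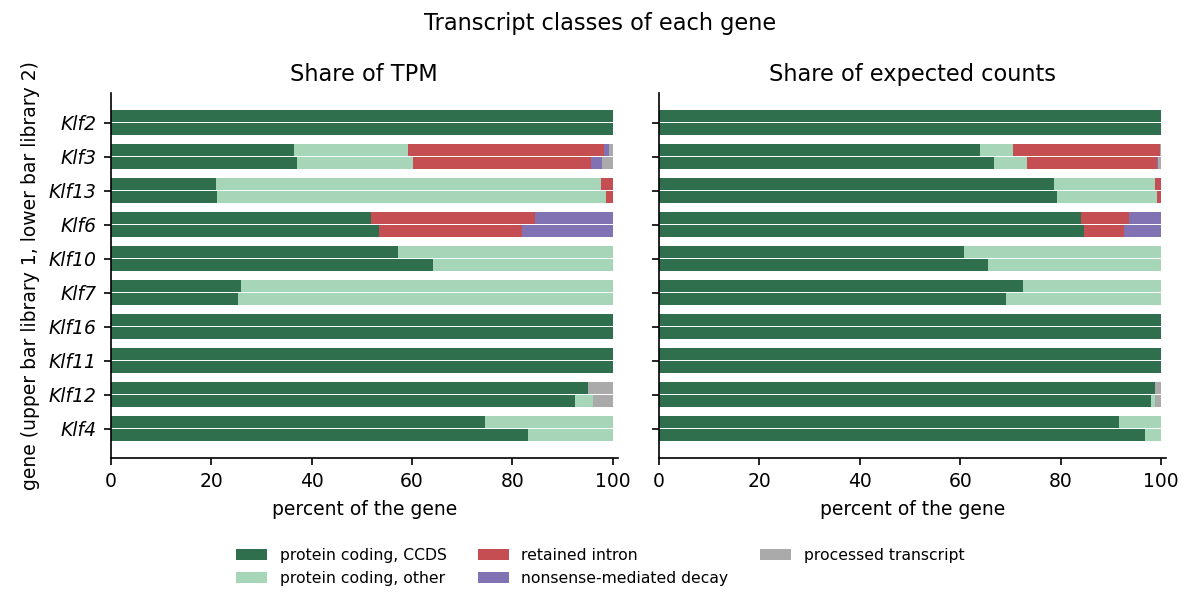
Percent of each gene's TPM (left) and of its expected counts (right) in each class of GENCODE M21 transcript, with the upper bar for library 1 and the lower for library 2. In Klf13 and Klf7 the light green of short coding transcripts fills most of the TPM but the smaller part of the counts, and retained-intron transcripts (red) appear in Klf3 and Klf6, with a thin edge in Klf13.

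Klf3 and Klf6 were the genes with the most retained-intron transcripts, which keep an intron and are annotated as not coding. In Klf3, retained-intron transcripts held 29.2% of the counts in library 1 and 26.1% in library 2, and 39.1% and 35.5% of the TPM. The longest of them, Klf3-203 of 4016 bases, took 19.18% (18.45 to 19.95) and 16.9% (16.2 to 17.7) of the counts. The coding Klf3-201, of 5221 bases, took 60.95% (60.01 to 61.88) and 64.8% (63.8 to 65.8). In Klf6, a retained-intron transcript of 799 bases took 9.55% (8.83 to 10.3) and 8.11% (7.47 to 8.79), and Klf6-203, annotated as a target of nonsense-mediated decay, took 6.41% (5.82 to 7.06) and 7.32% (6.71 to 7.97). In both genes the share of counts on retained introns was larger in library 1, and whether these reads came from unspliced RNA was not tested.

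Klf2 and Klf16 each have 1 annotated transcript. Klf11 has 4, and all its counts were placed on Klf11-201. By share of counts, Klf12 moved most between the libraries. By share of TPM the transcript Klf4-203 moved more, from 25.4% to 0, on 3.55 counts. The short CCDS transcript Klf12-201, of 1856 bases, took 26.3% of the counts in library 1 (21.4 to 31.9) and 42.6% in library 2 (36.8 to 48.5), and the long Klf12-205, of 5890 bases, took 72.6% (67.0 to 77.6) and 55.4% (49.4 to 61.0). The effective length of the gene fell with this shift, so the TPM of Klf12 rose by 0.65 on the log2 scale between libraries where its share of all counts rose by 0.30. In Klf7 the short Klf7-201 took 21.3% (18.7 to 24.1) and 27.1% (23.8 to 30.5) of the counts, and the CCDS transcript of 7662 bases took 72.6% (69.6 to 75.4) and 69.1% (65.4 to 72.4).

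Over transcripts with a CCDS identifier alone, an alternative added after seeing the data, the order by means put Klf2 (503) and Klf3 (90.3) first, then Klf6 (85.2) above Klf13 (45.5), with Klf7 ninth at 4.81. In total 6 of the 10 genes changed place. This order did not hold in each library. In library 2 Klf6 (98.2) stood above Klf3 (93.4), and in library 1 Klf7 (5.07) stood above Klf12 (4.39). The ratios of the most alike finger pairs kept their direction, at 567-fold and 1373-fold for Klf2 over Klf4, 19.9-fold and 13.9-fold for Klf3 over Klf12, 14.2-fold and 21.6-fold for Klf6 over Klf7 and 3.07-fold and 2.01-fold for Klf10 over Klf11.

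The libraries were then compared gene by gene, to see which levels held from library to library. Library 1 held 26593267 expected counts over all genes and library 2 held 22036331. The rounded counts of a gene were set against the libraries' shares of this total with a 2-sided exact binomial test, and p-values were adjusted by Benjamini-Hochberg over the 24253 genes with at least 10 counts. Of the 10 Krüppel-like genes, 5 were higher in library 2 (Klf2, Klf3, Klf6, Klf11 and Klf12), only Klf4 was higher in library 1, and the other 4 did not pass. The background over all genes tested was 46.4% upward in library 2 and 23.9% upward in library 1, so the members' 5 of 10 is near the background. The median log2 ratio of the 10, library 2 over library 1, was 0.05, beside 0.23 over all genes tested and 0.01 over detected genes. The median size of the difference was 0.20 for the 10, 0.70 for all tested and 0.29 for detected genes.

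Klf2 rose from 13205 to 13731 expected counts although library 2 was smaller, a log2 ratio of 0.33 (95% interval 0.29 to 0.36, adjusted p = 3.3e-75, exact binomial test). Klf6 went from 5956 to 6575 counts, a log2 ratio of 0.41 (0.36 to 0.46, adjusted p = 5.2e-56, exact binomial test). Klf11, the TGF-beta-inducible relative of Klf10, went from 399 to 539, the widest called difference upward at 0.70 (0.52 to 0.90, adjusted p = 6.1e-13). These 3 were higher in library 2 with TMM scaling (0.23, 0.32 and 0.61) and with DESeq2 size factors (0.22, 0.31 and 0.60) too.

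Of the other called genes, Klf3 and Klf12 depended on the scaling and Klf4 did not. Klf3, with 10470 and 9177 counts, had a log2 ratio of 0.08 (0.04 to 0.12, adjusted p = 0.00019, exact binomial test), which was -0.02 with TMM and -0.03 with DESeq2 size factors, not passing. Klf12, with 270 and 275 counts, had a ratio of 0.30 (0.05 to 0.55, adjusted p = 0.027), which no longer passed with TMM (0.20) or DESeq2 size factors (0.19). Klf4 was higher in library 1, at -1.01 (-1.94 to -0.19, adjusted p = 0.019), and stayed so at -1.11 and -1.12. Klf13 had 5978 and 5036 counts and a ratio of 0.02 (-0.03 to 0.08, adjusted p = 0.45), and was called higher in library 1 with TMM (-0.07) and DESeq2 size factors (-0.08).

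Klf10 had 1496 and 1227 counts, a ratio of -0.01 (-0.12 to 0.10, adjusted p = 0.84, exact binomial test). Klf7, at 883 and 681, had -0.10 (-0.25 to 0.04, adjusted p = 0.20), and Klf16, at 543 and 419, had -0.10 (-0.29 to 0.08, adjusted p = 0.34). The intervals of all 3 hold 0 and leave room for differences of about these bounds. With DESeq2 size factors they passed as higher in library 1, at -0.12, -0.21 and -0.21. TMM gave 3 members higher in library 2 and 3 in library 1, beside 41.1% and 29.4% of the 24253 genes. DESeq2 size factors gave 3 and 5, beside 40.6% and 30.0%. Relative to library totals, DESeq2 size factors moved the median of all genes tested from 0.23 to 0.12, and the median of the 10 from 0.05 to -0.05.

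**Figure D3:**
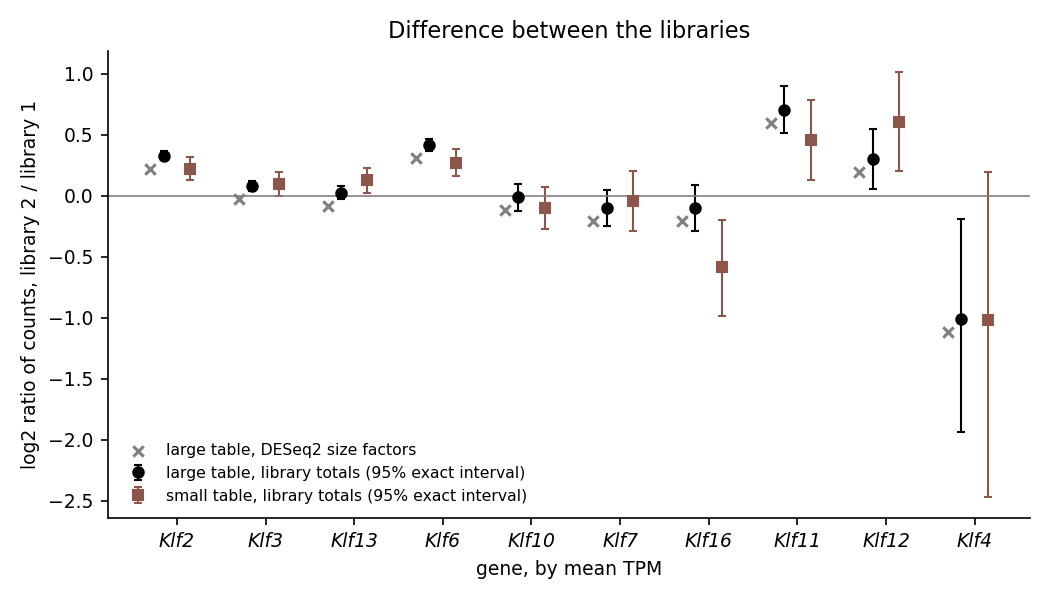
Log2 ratio of counts, library 2 over library 1, by gene. Black circles are expected counts of the large table and brown squares whole counts of the small table, both over library totals with exact 95% intervals, and grey crosses use DESeq2 size factors. Klf2, Klf6 and Klf11 lie above 0 in all 3, and Klf3 and Klf13 change side with the scaling.

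The deposited data hold a second gene table per library, made from an mm10 alignment with the older GENCODE M4 annotation and called the small table here. It held 7911181 counts in library 1 and 6972139 in library 2, and it rests on the same 2 libraries, so it is no independent sample. In it 5 of the 10 genes were called upward in library 2 and 1, Klf16, upward in library 1, beside 32.2% and 22.1% of the 14432 genes tested. All 10 had the same sign as in the large table. Called in both tables were 4, all with the same sign: Klf2 (1937 and 1991 counts, log2 ratio 0.22), Klf6 (1301 and 1383, 0.27), Klf11 (143 and 173, 0.46) and Klf12 (91 and 122, 0.60).

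Klf3 (1665 and 1568 counts, log2 ratio 0.10, adjusted p = 0.10, exact binomial test) and Klf4 (19 and 8, -1.02, adjusted p = 0.13) did not pass in the small table. Klf13 (1552 and 1492, 0.13, adjusted p = 0.033) and Klf16 (150 and 88, -0.58, adjusted p = 0.0053) passed there and not in the large table with library totals. The sets of called genes therefore differed between the tables although the numbers called were equal. Klf10 (616 and 507 counts) and Klf7 (295 and 252 counts) passed in neither, at log2 ratios of -0.10 and -0.04.

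The small table held fewer counts for each of the 10 genes, and the shortfall was not even. For Klf2 it held 14.7% of the large table's count in library 1 and 14.5% in library 2, and for Klf3 15.9% and 17.1%. For Klf10 it held 41.2% and 41.3%, and for Klf4 45.2% and 47.1%. The abundant members therefore stood lower against the rest in the small table. In counts, Klf2 exceeded Klf10 by 8.83-fold in the large table and 3.14-fold in the small table of library 1. The same course ran through all genes. The median over genes fell from 50.0% at 10 to 100 counts to 17.5% in library 1 and 15.8% in library 2 at 10000 to 20000 counts, the class of Klf2. Whether duplicate reads were removed for the small table is not given in the sources used here.

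**Figure D4:**
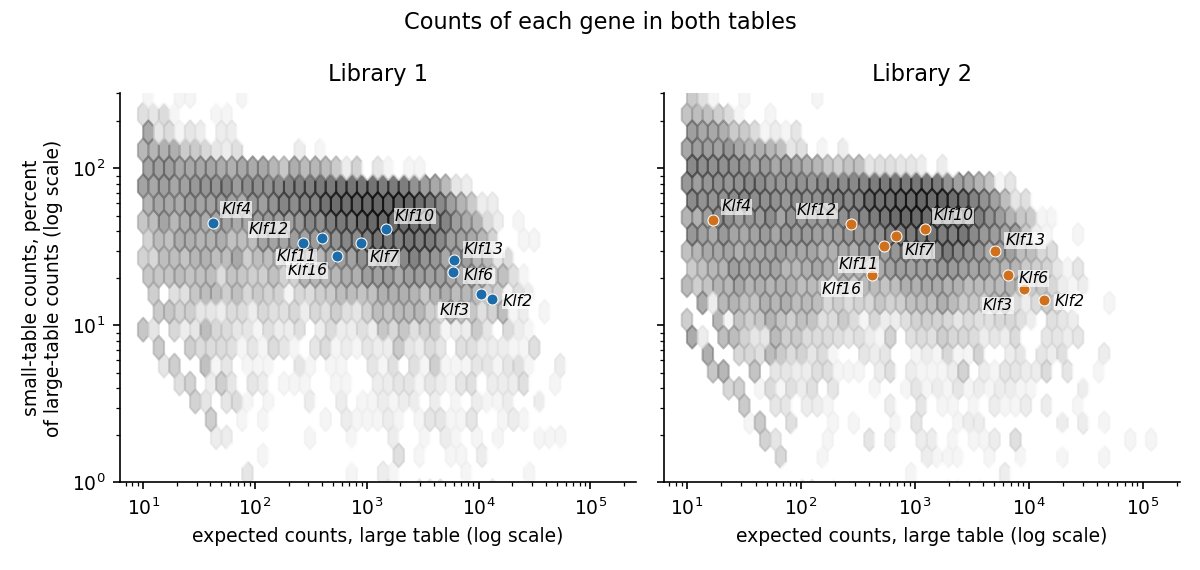
Counts of a gene in the small table as a percent of its expected counts in the large table (both axes log), for library 1 (left) and library 2 (right). Grey hexagons are all genes with at least 10 counts and a small-table count above 0 (darker, more genes, with values outside 1 to 300% not shown), and points are the 10 Krüppel-like genes, which fall from 45.2% for Klf4 to 14.7% for Klf2 in library 1.

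Overlapping genes could share reads with 4 of the 10, because strand use in counting is not given in the sources used here. Of 9 genes that overlap Klf3, Klf7, Klf12 or Klf13, 4 held any counts. On Klf3 lie Gm20033 on the opposite strand (130 and 80.6 expected counts) and C230096K16Rik on the same strand (349 and 257) beside the 10470 and 9177 counts of Klf3. On Klf13 lie Gm27252 (15 and 47) and E030018B13Rik (7 and 2), both on the opposite strand.

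Promoter sequence was taken from the RefSeq table of GRCm38.p6, which matched 8 of the 10 genes, all except Klf10 and Klf16. Each window ran from 250 bases before to 50 bases after the RefSeq start. The stretches before the first exon of Klf2 (chr8:72318883-72319032), Klf6 (chr13:5861332-5861481) and Klf11 (chr12:24651124-24651273), all on the plus strand, are shown because these 3 genes were higher in library 2 in both tables and with each scaling. Capitals mark any match to the motifs searched on both strands: the CACCC box, the GC box (GGGCGG), the forkhead motif GTAAACA, the AP-1 motif TGACTCA, the CArG box of serum response factor and the MEF2 site.
Klf2: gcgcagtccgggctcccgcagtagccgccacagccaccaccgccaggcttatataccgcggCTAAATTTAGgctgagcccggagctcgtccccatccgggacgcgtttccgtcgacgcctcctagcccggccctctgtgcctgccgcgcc
Klf6: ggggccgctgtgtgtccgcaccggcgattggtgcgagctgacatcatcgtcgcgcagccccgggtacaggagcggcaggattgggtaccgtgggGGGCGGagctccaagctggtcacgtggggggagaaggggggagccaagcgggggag
Klf11: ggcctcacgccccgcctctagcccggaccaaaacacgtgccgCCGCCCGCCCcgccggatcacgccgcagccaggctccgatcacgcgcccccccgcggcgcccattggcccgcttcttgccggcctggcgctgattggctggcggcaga

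The capitals in Klf2 are a MEF2 site, the motif through which the kinase Mapk7 (ERK5) is known to act on Klf2, and those in Klf6 and Klf11 are GC boxes, in Klf11 on the opposite strand. The whole windows were GC-rich, from 58.3% GC in Klf7 to 77.7% in Klf11, apart from Klf12 at 45.7%, beside a median of 52.7% over all 32851 promoters of the table. GGGCGG was present in 7 of the 8 windows, all except Klf12, and in 35.7% of all promoters. CACCC was present in 5 of 8 (Klf2, Klf3, Klf7, Klf12 and Klf13) and in 57.5% of all. The MEF2 site was found in Klf2 alone of the 8 and in 3.19% of all promoters. The forkhead motif, the AP-1 motif and the CArG box were found in none of the 8, and in 3.65%, 5.20% and 1.63% of all promoters. Sites of the CACCC box and the GC box can overlap, and each was counted. A match is a stretch of letters and no evidence of binding.

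Genes that act on Klf2 or on its turnover were all detected, 10 of 10. The test called 3 upward in library 2 and 3 upward in library 1, beside 46.4% and 23.9% of all genes tested. The other 4 did not pass. The MEF2 factor Mef2d stood at a TPM of 74.7 and 77.7, and the forkhead factor Foxo1, which is known to induce Klf2, at 62.5 and 62.6. Neither passed with library totals, and Foxo1 was called higher in library 1 with TMM (-0.11) and DESeq2 size factors (-0.12). Map2k5, the kinase of ERK5, stood at 30.3 and 44.0 with a log2 count ratio of 0.52 (adjusted p = 4.9e-17, exact binomial test). Mef2a was lower in library 2, at 30.4 and 22.9, a ratio of -0.52 (adjusted p = 2.8e-22), a call absent from the small table. The widest differences in each direction, named after their values were seen, were in Mapk7 and Foxo3. Mapk7 stood at 11.3 and 21.9, a ratio of 0.83, and Foxo3 at 3.98 and 2.39, a ratio of -0.71. Both were called in the same direction in the small table. The list as a whole thus had no common direction, with a median log2 ratio of 0.00.

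Genes that act in T cell movement and have been linked to Klf2 were abundant. The integrin chain Itgb7 stood at a TPM of 979 and 1134 and the exit receptor S1pr1 at 340 and 384, and both were higher in library 2 (log2 count ratios 0.26 and 0.16, adjusted p = 1.8e-101 and 7.9e-22, exact binomial test). Ccr7, the receptor that guides cells into lymph nodes, stood at 464 and 459 and did not pass with library totals. Its call changed direction with table and scaling. It was higher in library 1 with TMM (-0.13) and DESeq2 size factors (-0.14), and higher in library 2 in the small table (0.14). With 2 libraries, no covariation with Klf2 can be measured.

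The corepressors of the repressor members were present, with all 7 genes detected. Ctbp1 stood at a TPM of 268 and 221 and Ctbp2, its close relative, at 2.40 and 2.72. Hdac1 stood at 250 and 242, Sin3b at 131 and 150 and Hdac2 at 130 and 116. The test called 2 of the 7 upward in library 2 and 3 upward in library 1, beside 46.4% and 23.9% of all genes tested. Sin3b and Sin3a were higher in library 2, at log2 count ratios of 0.34 and 0.41. Hdac1, Ctbp1 and Hdac2 were higher in library 1, at -0.05, -0.09 and -0.18, and the other 2 of the 7 did not pass. None of these 3 was called in the small table, where Ctbp1 turned sign (0.03).

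In the TGF-beta axis around Klf10 and Klf11 all 8 genes were detected. The test called 3 of them upward in library 2 and 2 upward in library 1, beside 46.4% and 23.9% of all genes tested. It left 3 uncalled. The receptor chain Tgfbr2 stood at a TPM of 142.4 and 142.2 and did not pass with library totals. With TMM (-0.09) and DESeq2 size factors (-0.10) it was called higher in library 1. The ligand Tgfb1, at 130 and 104, was higher in library 1 with a log2 count ratio of -0.28 (adjusted p = 1.0e-14, exact binomial test). The signal carriers Smad4 (91.6 and 111) and Smad2 (64.1 and 84.3) were higher in library 2 at 0.26 and 0.39. Ccl5, the chemokine gene that Klf13 activates, stood at 54.2 and 69.0, a ratio of 0.33 (adjusted p = 0.0013) that was not called in the small table (214 and 197 counts).

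Of 5 growth and arrest genes often named as targets of the family, 3 (Myc, Cdkn1a and Ccnd1) were higher in library 2. Cdkn1b was higher in library 1. Over all genes tested the shares called in these directions were 46.4% and 23.9%. Ccnd1, below the detection threshold in library 1, was not called in the small table and turned sign there (7 and 5 counts). Myc stood at a TPM of 142 and 195 (log2 count ratio 0.47), the kinase inhibitor Cdkn1b at 24.5 and 17.3 (-0.39), and Cdkn1a at 1.74 and 4.73 (1.28). Cdkn1c, at 3.59 and 5.30, did not pass, and was called upward in library 2 in the small table.

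Klf2, Klf6 and Klf10 are known to respond quickly to stimuli and cell handling, so a list of immediate early and heat shock genes is given beside them. Of 14 such genes the test called 11 upward in library 2 and 2 upward in library 1, with a median log2 count ratio of 0.38, beside 46.4% and 23.9% of all genes tested and a median of 0.23. The AP-1 gene Junb stood at a TPM of 537 and 814, Hspa1b at 558 and 738, Jund at 456 and 603, and Nfkbia at 355 and 381. Their ratios were 0.58, 0.38, 0.39 and 0.13, and Nfkbia was no longer called with DESeq2 size factors. Both genes called upward in library 1 were heat shock genes, Hspa1a (162 and 156, -0.07) and Hsph1 (96.8 and 82.7, -0.35). By whole counts of the small table, 9 were upward in library 2 and 1, Hsph1, upward in library 1, beside 32.2% and 22.1%. Klf2 and Klf6 were higher in library 2 too and Klf10 did not pass. The part of cell handling in their values was not tested.

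Of 17 remaining Krüppel-like and related SP genes, 16 matched a row and 6 were detected. Klf9 was the only detected Krüppel-like gene among them, while Sp3 and Sp2 stood above 6 of the 10 described genes. Sp3 stood at a TPM of 124 and 98.0, Sp2 at 65.0 and 65.6, Sp6 at 17.6 and 21.3, Sp4 at 11.7 and 21.7, Sp1 at 13.2 and 12.2 and Klf9 at 1.55 and 2.12. Of the 14 with enough counts to test, 8 were called upward in library 2 and 3 upward in library 1, beside 46.4% and 23.9% of all genes tested. By whole counts of the small table, library 1 was higher for 2 and library 2 for 2.

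Klf1, the red cell factor of the family, was chosen for mention after its values were seen. It held 405 expected counts in library 1 and 1 in library 2, a TPM of 16.5 and 0.05, or 224-fold higher in library 1 with an exact 95% interval from 59.9 to 13288. The small table held 284 and 4. All 6 erythroid marker genes were also higher in library 1, beside 23.9% of all genes tested, with summed TPM values of 8494 and 94.7. The part of these markers in the other values was not tested.

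**Figure D5:**
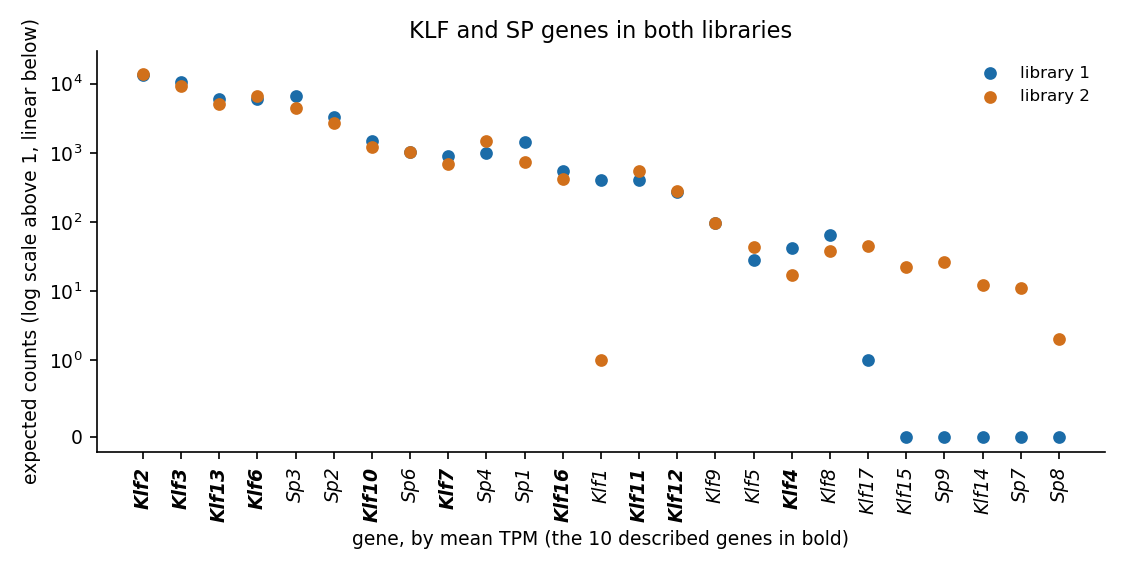
Expected counts of each Krüppel-like and SP gene in library 1 (blue) and library 2 (orange), on an axis that is logarithmic above 1 and linear below, with the 10 described genes in bold and Sp5, at 0 in both, left out. Klf1 falls from 405 to 1, and Klf15, Sp9, Klf14, Sp7 and Sp8 have no counts in library 1.

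Several genes near the floor were seen in library 2 alone or nearly so, also named after their values were seen. Klf17 had 1 and 44 counts, Klf15 0 and 22, Klf14 0 and 12, Sp9 0 and 26.3 and Sp7 0 and 11. The small table held 0 and 16 for Klf17, 0 and 7 for Klf15 and for Klf14, and none in either library for Sp9 and Sp7. With 3 counts as the most that 0 allows in library 1, Klf15 was 8.85-fold and Klf14 4.83-fold higher in library 2. These ratios take the counts of library 2 as exact and are no lower limits. The exact intervals reach below them, to log2 ratios of 2.72 for Klf15 and 1.75 for Klf14. Genes at or above a TPM of 1 numbered 15359 in library 1 and 19186 in library 2.

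The label was checked against marker genes. All 7 regulatory T cell markers were detected, with Foxp3 at a TPM of 87.3 and 87.4, Cd3e at 1122 and 1046, Cd4 at 484 and 490, Tnfrsf18 at 344 and 369, Ikzf2 (Helios) at 214 and 185, and Ctla4 at 84.1 and 66.6. The test called 4 of the 7 upward in library 1 (Cd3e, Ikzf2, Foxp3 and Ctla4) and 1, Tnfrsf18, upward in library 2. Over all genes tested, 23.9% were called upward in library 1 and 46.4% in library 2. The small table called 1 upward in library 1 (Ikzf2) and 3 upward in library 2, Cd3e among them, beside 22.1% and 32.2%. Transcripts of other cells were present and differed between libraries. The 8 macrophage markers had a summed TPM of 9.89 against 99.9, all 8 were higher in library 2, and C1qc and Fcna had no counts in library 1. B cell markers summed to 154 and 112, with 4 of 5 higher in library 1, and CD8 T cell markers to 27.0 and 13.5, with both higher in library 1. NK cell markers summed to 161 and 245, nearly all of it Nkg7 (153 and 233), with 3 of the 4 tested higher in library 2. Klrb1c was not called, and Ncr1, at 0 and 5 expected counts, was not tested. Endothelial and stromal markers summed to 83.3 and 83.6, nearly all of it Pecam1, and the other 6 were higher in library 2. Kdr, Col3a1 and Tek had no counts in library 1. The 5 neutrophil and monocyte markers summed to 72.8 and 116. In that list Ly6c2 (46.4 and 112) and Csf3r were higher in library 2, Lyz2 (23.8 and 3.72) and S100a9 (2.60 and 0) were higher in library 1, and S100a8 was at 0 in both. The 5 dendritic cell markers summed to 7.56 and 6.01, with Itgax at 0 in library 1. Klf4 and Klf2 are also expressed in monocytes and endothelium, and the part of those cells in their values was not tested. Klf4 was lower and Klf2 higher in library 2, where the macrophage markers and Ly6c2 were higher and the myeloid genes Lyz2 and S100a9 were lower.

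Resting T cell genes, a list that includes Klf2, were all detected. Of the 8, the test called 3 upward in library 2 and 2 upward in library 1, beside 46.4% and 23.9% of all genes tested. The small table called 5 and 0, beside 32.2% and 22.1%. Tcf7, at a TPM of 1107 and 999, was among those upward in library 1 by the large table (log2 count ratio -0.16) and upward in library 2 by the small table (0.15, adjusted p = 0.0025, exact binomial test). Of 8 genes of effector T cells, 6 were called upward in library 2 and 2, Batf and Icos, upward in library 1, beside the background of 46.4% and 23.9%. Batf stood at 182 and 107 and Icos at 149 and 125. The widest differences, named after their values were seen, were in Tbx21 (10.3 and 40.8, log2 count ratio 1.97) and Klrg1 (8.52 and 27.5, 1.67). The 8 effector genes summed to 463 and 446, less than Klf2 alone in library 2 and slightly more in library 1.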

How the data were processed

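Polyadenylated RNA of regulatory T cells was measured in 2 technical libraries of 1 biological replicate. The authors quantified genes and transcripts (the large tables) from mm10 transcriptome alignments with GENCODE M21, per the deposited notes. The large tables give expected counts, TPM and FPKM, per the file headers, with TPM and FPKM divided by effective length. For each transcript the authors also give its percent of the gene's TPM. The small tables, made by the authors from genome alignments and GENCODE M4, hold whole-number counts. The sources used here do not name the aligner or quantifier, and strand use and removal of duplicates are likewise not given there.

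Library totals were 26593267 and 22036331 expected counts over 55536 GENCODE genes. Rows of no gene held 0.201% and 0.235% of counts and were left out. A count of 0 allows up to 3 counts, a CPM of 0.113 and 0.136. Expected counts were rounded and tested with a 2-sided exact binomial test (scipy 1.17.1) against the library shares, for genes with at least 10 summed counts, with Benjamini-Hochberg adjustment (statsmodels 0.14.6). Genes were called below an adjusted p of 0.05. The test compares these libraries, not conditions. It was tested on simulated counts with counting error only, a setting that cannot show how it behaves where libraries differ by more. Ratios add 0.5 counts to each library. Intervals and floors cover counting error only, since PCR copies are not independent molecules. Alternatives were TMM (edgeR 4.0.16), DESeq2 1.42.0 size factors, other minima and thresholds, the small table, FPKM, counts per kilobase, CCDS transcripts and each library alone.

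The 10 genes, the 20 gene lists and the markers were chosen with earlier results of these data known. All 10 genes are given, with up to 4 detected genes of highest mean TPM from each other list, the detected KLF and SP genes, and genes that overlap the 10. Klf1, the genes near the floor, Hspa1a, Hsph1, Mapk7, Foxo3, Tbx21 and Klrg1 were picked with their values in view. Genes with the most similar pattern were not sought, because 2 technical libraries hold no pattern. Some genes of the lists are not reported here.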

Additional observations from a re-analysis of the deposited data

How the results depend on the processing

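Counting error and scaling limited the calls, and every call rests on 2 technical libraries. The count of Krüppel-like genes higher in library 2 was 5 with library totals, 3 with TMM and 3 with DESeq2 size factors, and stayed at 5 with a minimum of 1 or 100 counts, with 1 count added and in the small table. The count higher in library 1 was 1, and became 3 with TMM, 5 with DESeq2 size factors and 0 with a minimum of 100 counts, which leaves Klf4 untested. Klf3 changed sign with TMM (-0.0157) and DESeq2 size factors (-0.0263), and Klf13 with both (-0.0729 and -0.0835). Over all genes, 11255 were called upward in library 2 and 5785 upward in library 1. A minimum of 100 counts gave 4721 upward in library 2 and 4345 upward in library 1, of 12609 genes tested. Whole counts of the small table gave 4644 upward in library 2 and 3187 upward in library 1. Detected members were 9, and 10 or 8 at a TPM of 0.1 or 5, with 9 to 10 from a single library. The order by FPKM and in each library alone was that by mean TPM, while counts per kilobase of the longest transcript moved 5 genes and CCDS transcripts, added after seeing the data, moved 6. The main transcript of each gene was the same in both libraries. No paired analysis was possible because the libraries form 1 group.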
